A study of Mus musculus and Sus scrofa with 18 samples.

Results

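Striatal transcriptomes of 3 HD 140Q-KI mice that received the CasRx system with guides against human HTT were compared with those of 3 WT mice, and the genes that still differed from WT were described. These 6 libraries, chosen by their sample labels, were part of a series of 18 from mice and pigs. The 3 treated mice carried 1 knock-in allele, in which exon 1 of mouse Htt is exchanged for its human counterpart carrying a long CAG tract, and were injected into the striatum at 6 months of age with 3 kinds of AAV9 particle, carrying CasRx under the CAG promoter, HTT gRNA1 + 2 and HTT gRNA3 + 4 under U6 promoters. WT mice received AAV9 with the control guide and no CasRx vector. In 3 untreated HD 140Q-KI mice, used here for reference, CasRx was given with the control guide. The mice were killed 1.5 months after injection. The genotype, the CasRx vector and the HTT guides therefore change together between treated and WT mice, and their contributions cannot be told apart.

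Huntington's disease is caused by an expanded CAG repeat in HTT, and the striatal projection neurons, also called medium spiny neurons, are the cells most affected. These neurons receive dopamine and glutamate, signal through cAMP, and express a characteristic set of receptors, phosphodiesterases and peptides whose mRNAs are known to decline in HD models before cells are lost. CasRx is an RNA-guided ribonuclease (Cas13d) that cuts RNA paired to its guide and leaves the genome as it is. Type I and type II interferons are signalling proteins released on infection or tissue inflammation, and they induce antiviral genes and antigen presentation in glia as well as in immune cells.

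The 4 HTT guides are shown because their pairing to mouse Htt bears on the reading of the target gene. Each was aligned without gaps to the mouse Htt reference transcript of 13215 bases (GENCODE M21, GRCm38, plus strand of chromosome 5, positions 34761744 to 34912534), and capitals mark the guide bases, written 5′ to 3′, that pair at the best site.
HTT gRNA1, 28 of 30 bases paired: AgGCCTTCATCAGCTTTTCCAGGGTcGCCA
HTT gRNA2, 24 of 30 bases paired: GGTCGGTGCAGCGGcTCCTCaGCCacAgCc
HTT gRNA3, 25 of 30 bases paired: GCTGAGGaaGcTGAGGaGGcGGCGGCGGCG
HTT gRNA4, 24 of 30 bases paired: GtgCCTGcGGCGGCGGCTGAGGaaGcTGAG
All 4 best sites lay in exon 1 of mouse Htt. HTT gRNA1 paired at 28 of its 30 bases, with a longest unbroken run of 23, at chr5:34761908-34761937, a stretch that overlaps the start codon. HTT gRNA2, HTT gRNA3 and HTT gRNA4 paired at 24, 25 and 24 of 30 bases, with longest runs of 14, 10 and 14. Pairing was counted on sequence alone, and cutting of the mouse transcript was not tested.

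Htt mRNA, the target, was lower in treated than in WT striatum. It stood at 139.7, 130.5 and 136 CPM (the count relative to the library size after TMM scaling) in the treated mice, 189, 191 and 182 in WT and 145, 140.4 and 149.6 in the untreated mice. The log2 fold change of treated over WT was -0.46 ± 0.06 (SE, n = 3 mice per group, as for all log2 fold changes after this), with an adjusted p of 0.00425 in the edgeR quasi-likelihood test. All 3 treated values lay below all 3 WT values, and the call held in each of the 6 fits that left out 1 treated or WT library. It was lost in an edgeR fit with the share of Y-linked counts as a covariate (-0.48, adjusted p = 0.177). Treated and untreated mice differed by -0.10 ± 0.06 on the log2 scale, with an unadjusted P of 0.131 and an adjusted p of 0.942, so a reduction by the HTT guides was not detectable in these counts, although each treated value lay below each untreated value. Since only transcript 3′ ends were read, counts of the knock-in allele and the mouse allele of Htt are not separated.

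The libraries held between 27184356 and 32102121 counts each, and the treated libraries (29943675 to 32102121) were in the same range as the WT libraries (27184356 to 31112342). The sexes were not balanced between the groups. No count from the 4 Y-linked genes was found in any treated library or in untreated mice 2 and 3, whereas the 3 WT libraries held 3995, 3435 and 5005 and untreated mouse 1 held 4683. Xist, the RNA that silences one X chromosome in females, was at 983, 973 and 952 CPM in treated and 0.491, 0.0734 and 3.76 in WT mice, and 0.596, 851 and 826 in the untreated mice. Of 5 X-linked genes that escape this silencing, Xist and Eif2s3x were called higher, and the call of Xist was lost when any one of the 6 treated and WT libraries was left out. Sex and treatment group therefore cannot be told apart in treated against WT. A fit with the share of Y-linked counts as a covariate, which separates sex from group through untreated mouse 1 alone, called 5 genes. It kept 4 of the 718 calls of the main fit, so nearly every call reported here was lost in it. Its values are given for some genes and lists only. The 9 mouse libraries shared 1 estimate of the spread. Untreated mouse 3 had the highest summed level of interferon-stimulated genes of all 9 mice, and without it 1380 genes were called in place of 718. A fit to the 6 treated and WT libraries alone called 1044, with 524 higher.

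Of 19463 genes tested, 718 (3.69%) passed an adjusted p of 0.05 between treated and WT striatum, 176 higher (0.904%) and 542 lower (2.78%) in treated mice. The higher and lower genes differed in size. Among the genes that rose, 106 changed at least 2-fold and the median log2 change was 1.41, and among those that fell, 115 changed at least 2-fold and 427 changed less, with a median of -0.63. The median over all tested genes was 0.004. By a criterion the study used, an unadjusted P under 0.05 with a fold change of at least 2, 747 genes were higher (3.84%) and 269 lower (1.38%). Every treated library lay above every WT library for 2614 genes (13.4%) and below for 2948 (15.1%). The number of calls depended on single libraries. It was 172, 136 and 177 without treated mouse 1, 2 and 3, and 1092, 309 and 684 without WT mouse 1, 2 and 3. With library totals in place of TMM factors the calls were 212 higher and 336 lower. DESeq2 called 864 genes higher and 1082 lower.

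**Figure D1:**
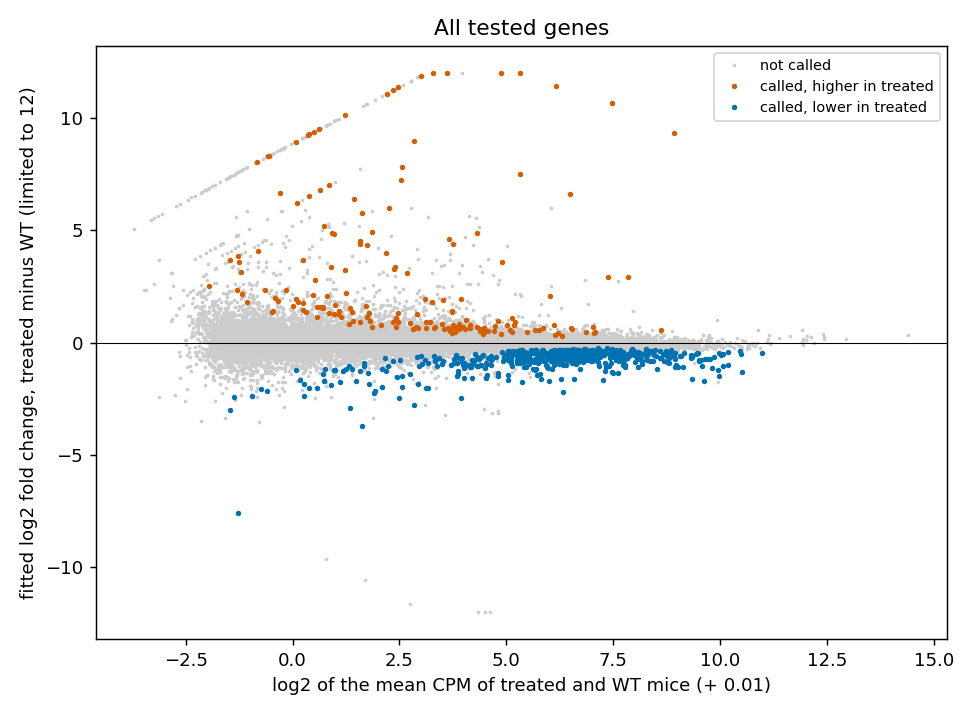
Each point is a tested gene, with the log2 of the mean CPM of treated and WT mice (plus 0.01) on the x axis and the fitted log2 fold change of treated over WT on the y axis, drawn at 12 or -12 where it was larger. Of the 542 genes called lower 427 changed less than 2-fold, and the 176 called higher reached the largest changes, where WT counts were near 0.

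Genes of dopamine, adenosine and cAMP signalling were below WT in the treated striatum. Of 33 listed genes, all were tested, 28 were called lower, against 2.78% of all genes, and none higher. Their median log2 fold change was -0.92 against 0.004 for all genes. Every treated library lay below every WT library for 29 of them, compared with 15.1% of all genes. Their summed level was 9020.3, 8749 and 8878 CPM in the treated mice and 15037, 18862 and 19037 in WT. Between 19 and 28 were called lower when 1 treated or WT library was left out, and 28 were called by DESeq2 and by the fit to 6 libraries. With the Y-linked share as a covariate 1 was called and the median was -0.95. In whole tissue, fewer projection neurons and less mRNA per neuron cannot be told apart.

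Ryr1, a calcium release channel of the endoplasmic reticulum, was at 28.1, 27.6 and 30.0 CPM in treated and 115, 157 and 126 in WT mice, with a log2 fold change of -2.21 ± 0.15 and an adjusted p of 0.000549. It was also the only gene of the list called with the Y-linked covariate, with an adjusted p of 0.00477. Ryr1 was lower by 4.64-fold, and the treated values fell well outside the WT range. Among the receptors, the serotonin receptor gene Htr1b read 30.6, 28 and 30.1 CPM in treated and 72.6, 106 and 114 in WT mice (log2 fold change -1.72 ± 0.15, adjusted p = 0.00174). Adora2a, the adenosine receptor of the indirect pathway, read 108, 110.0 and 109 and 247, 302 and 299 CPM (-1.37 ± 0.11, adjusted p = 0.00174). The treated mice lay close together on both genes and did not overlap with WT. The dopamine receptor genes followed, with Drd2 at 86.3, 93.4 and 100.3 against 178, 269.9 and 219 CPM (-1.25 ± 0.14, adjusted p = 0.00331). Drd1 stood at 94.8, 90.8 and 98.9 against 149, 189 and 245 CPM (-1.03 ± 0.17, adjusted p = 0.0127). Both receptors, which mark the indirect and the direct pathway neurons, were thus below WT in all treated mice.

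The enzymes that make and degrade cyclic nucleotides had some of the largest differences in mean CPM. Ppp1r1b, which encodes the phosphatase inhibitor DARPP-32, had the largest difference in mean CPM of the genes called lower, at 869, 841 and 807 CPM in treated and 1741, 2458 and 2089 in WT mice (-1.32 ± 0.13, adjusted p = 0.00261). The phosphodiesterase gene Pde10a read 548, 517 and 523 and 1272, 1543 and 1653 CPM (-1.49 ± 0.13, adjusted p = 0.00174). Pde1b, a calmodulin-dependent phosphodiesterase, fell by 1.12 on the log2 scale and Adcy5, the main striatal adenylyl cyclase, fell by 1.24, with adjusted p-values of 0.00324 and 0.00382. Rgs9, a regulator of dopamine receptor signalling, fell by 1.16 (adjusted p = 0.00324), and Rasd2, a striatal GTP-binding protein gene known as Rhes, fell by 1.07 (adjusted p = 0.00413). Of these 6 genes, each held its call in all 6 fits that left out a treated or WT library. Arpp21, a cAMP-regulated phosphoprotein gene, fell by 1.05 (adjusted p = 0.0201) and lost its call without treated mouse 1, 2 or 3, where its largest adjusted p was 0.114. Members with small changes were not called. Cck, a neuropeptide gene, was at 125, 129.6 and 115 CPM in treated and 162, 70.0 and 59.6 in WT mice (adjusted p = 0.573), and Pde1c at 28.9, 29.7 and 27.5 and 27.8, 34 and 45.1 (adjusted p = 0.338).

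**Figure D2:**
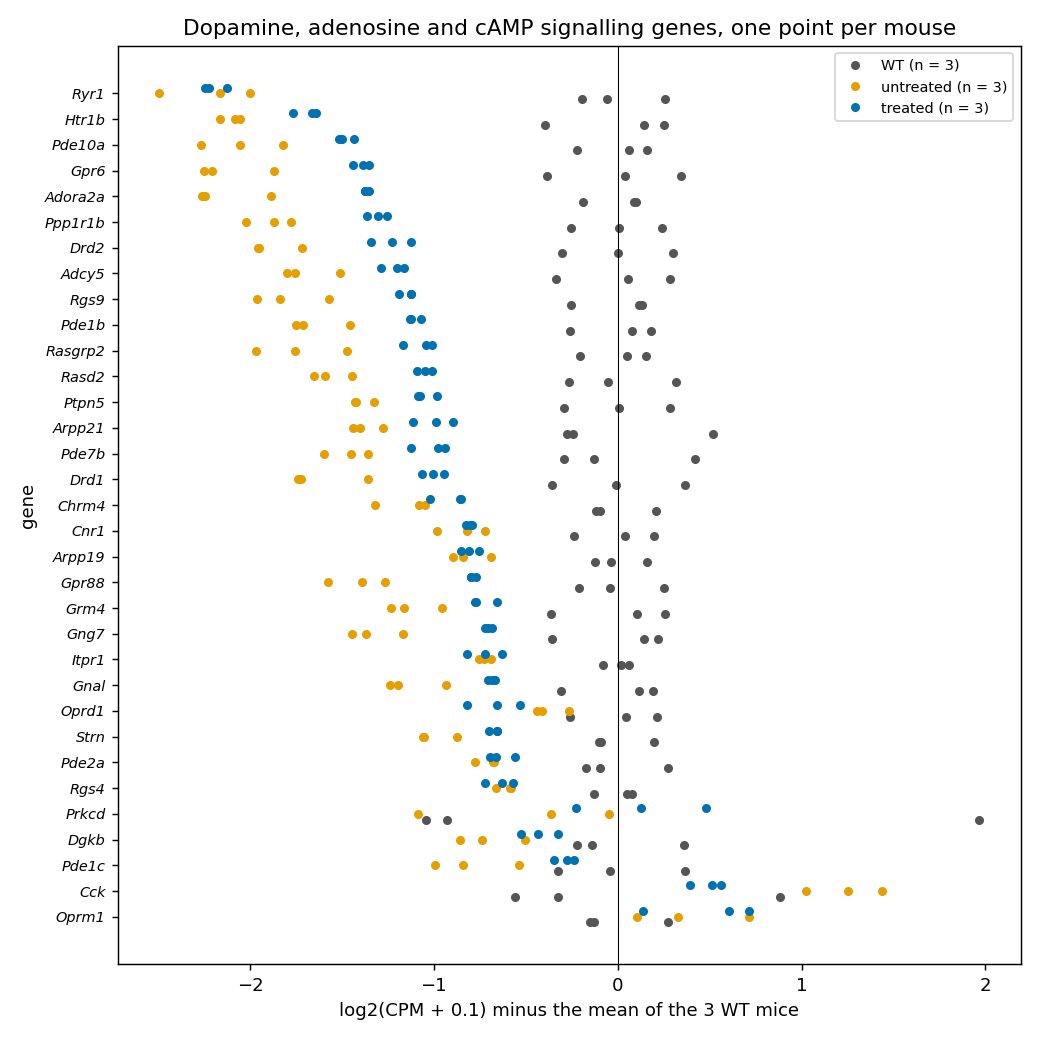
Each row is a gene of dopamine, adenosine or cAMP signalling and each point a mouse, placed by log2(CPM + 0.1) minus the mean of the 3 WT mice, with WT in grey, untreated in orange and treated in blue (n = 3 each, no error bars). Treated mice lay below WT for 29 of 33 genes, from Ryr1 at the top, and formed tight groups of 3.

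Channel genes of projection neurons were lower in part. Of 18 genes for channels and excitability, 9 were called lower, against 2.78% of all genes, and none higher, with a median log2 change of -0.53. Scn4b, the sodium channel beta subunit enriched in striatum, read 369, 371 and 361 CPM in treated and 1082, 1266 and 1267 in WT mice (-1.72 ± 0.11, adjusted p = 0.000549). Its call remained with the Y-linked covariate, at an adjusted p of 0.0362. Hpca, the calcium sensor hippocalcin, fell by 1.00 (adjusted p = 0.00261), and Actn2, a postsynaptic actin-binding protein gene, was at -0.99 with an adjusted p of 0.00898 that rose to at most 0.0623 without treated mouse 1, 2 or 3. Between 2 and 10 genes of the list were called lower when 1 treated or WT library was left out. The sodium channel genes Scn2a and Scn8a, which many neuron types use, were at 242, 218 and 245 against 261, 202 and 256 CPM and 308, 271 and 302 against 329, 290.2 and 297 CPM and were not called (adjusted p = 0.923 and 0.775).

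Among 19 transcription factors of projection neurons, 5 were called lower, namely Rxrg, Rarb, Meis2, Egr3 and Nr4a1, and none higher. Of all genes 2.78% were called lower. Rxrg and Rarb, which encode retinoid receptors, read 61.5, 64.9 and 66.8 and 29.7, 32.8 and 31.7 CPM in treated against 104, 141 and 122 and 48.2, 64.3 and 71.8 in WT mice. Their log2 changes were -0.93 ± 0.12 and -0.97 ± 0.14, with adjusted p-values of 0.00456 and 0.00654. Rarb lost its call without treated mouse 1 only, at an adjusted p of 0.0516. Meis2 fell by 0.69 (adjusted p = 0.0198), and lost the call without treated mouse 1, 2 or 3 or WT mouse 2, with a largest adjusted p of 0.114. Ebf1 and Tshz1 were at 12.3, 11.6 and 13.9 against 9.67, 8.29 and 19.2 CPM and 38.8, 36.5 and 46.9 against 33.4, 44.2 and 48.7 CPM, with overlapping groups. Without WT mouse 3 the median of the list moved from -0.46 to -0.17 and 1 to 5 genes were called over the fits that left out a library.

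Of the peptide precursor genes of the output pathways named here, Penk alone passed the test against WT. Penk, the enkephalin precursor of indirect pathway neurons, read 301, 319 and 330.3 CPM in treated and 752, 1012 and 1157 in WT mice (-1.62 ± 0.18, adjusted p = 0.00331). With the Y-linked covariate its adjusted p was 0.0506. Pdyn, the dynorphin precursor of direct pathway neurons, read 66.9, 59.4 and 81.3 and 84, 119 and 135 CPM (-0.70 ± 0.18, adjusted p = 0.0677), which did not pass. Tac1, the substance P precursor of direct pathway neurons, read 156, 156 and 171 and 147, 181 and 210.4 CPM (adjusted p = 0.497), and its groups overlapped. Penk was the only gene called among 13 tested peptide genes, and whether the changes of Penk, Pdyn and Tac1 differ from each other was not tested. Among 16 interneuron markers, Chat, the acetylcholine-synthesising enzyme, was called lower at 8.79, 10.2 and 11 against 13.9, 22.9 and 18.7 CPM (-0.89 ± 0.20, adjusted p = 0.0405). That call was lost without any one of treated mouse 1, 2, 3 and WT mouse 2, 3, with a largest adjusted p of 0.152. Calb2, Th and the peptide gene Npy overlapped between the groups, with adjusted p-values of 0.952, 0.974 and 0.864. The interneuron list had a median of -0.33. For 5 of the 16 every treated library lay below every WT library, where 15.1% of all genes did so, and for none above. At an unadjusted P under 0.05, 5 were lower and none higher, where 21.4% of all genes passed in either direction. DESeq2 called 5 lower. In edgeR 2.78% of all genes were called lower.

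The position of these genes between untreated and WT mice was tested directly. The untreated mice share the WT controls, so their values are given side by side only. For the dopamine, adenosine and cAMP list the median log2 change from WT was -0.92 in treated and -1.41 in untreated mice, and the summed level was 6719.7, 7401 and 6729 CPM in the untreated mice. No gene passed an adjusted p of 0.05 between treated and untreated mice in edgeR, the lowest adjusted p being 0.348. Of the 19463 tested genes, 1071 fell under an unadjusted P of 0.05, a share near that threshold. Of all genes, 150 (0.771%) had a P under 0.05 with a 2-fold change. Among the 718 genes called against WT, 30 lay nearer to WT in treated than in untreated mice at an unadjusted P under 0.05 and at least 1.5-fold, and 20 lay farther. The share of all tested genes passing the same rule was not counted, so no movement towards or away from WT is read from these numbers. Of the nearer genes, Rarb was at 15.4, 17.6 and 16.2 CPM in untreated mice, a log2 difference of treated over untreated of 0.94 ± 0.14, with an unadjusted P of 6.14e-05 and an adjusted p of 0.348. Adora2a was at 58.5, 76.1 and 59.3 CPM in untreated mice (difference 0.75 ± 0.11, unadjusted P = 7.73e-05, adjusted p = 0.348). Sh3rf2, a ubiquitin ligase gene, Rxrg and Rgs9 were also among them, with differences of 0.78 ± 0.12, 0.72 ± 0.12 and 0.64 ± 0.13. Tac1, not called against WT, was at 89.6, 101 and 87.7 CPM in untreated mice (difference 0.80 ± 0.12, unadjusted P = 7.69e-05, adjusted p = 0.348).

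General neuronal groups had no calls in the shared fit. In that fit 21.4% of all tested genes had an unadjusted P under 0.05, the background for the counts of such genes given here. Of 27 synaptic vesicle genes none was called by edgeR, with 5 at an unadjusted P under 0.05, and DESeq2 called 1, and their median was 0.09. Of 10 pan-neuronal genes none was called by edgeR, 2 had an unadjusted P under 0.05 and DESeq2 called 1, with a median of -0.01. Without WT mouse 1, edgeR called 4 synaptic vesicle genes higher, with a median of 0.19, and 1 pan-neuronal gene. With the Y-linked covariate the medians of these lists were 0.21 and 0.30, and the pan-neuronal median was -0.11 without WT mouse 2. Rbfox3, which encodes the neuronal marker NeuN, read 228, 219 and 197 CPM in treated and 255, 261 and 217 in WT mice (adjusted p = 0.289). Uchl1 and the neurofilament gene Nefl overlapped between groups, with adjusted p-values of 0.994 and 0.947. The composition of the dissected tissue varied within groups. Markers of cortical glutamatergic neurons, which adjoin the striatum, summed to 2867, 2752 and 2583 CPM in treated, 3962, 3342 and 3784 in untreated and 3488, 2482 and 1927 in WT mice, with a median difference of 0.53 and none of 13 called by edgeR or DESeq2 or at an unadjusted P under 0.05. Without WT mouse 1 that median was 1.28 and 7 were called higher. Choroid plexus genes summed to 618, 322 and 2218 CPM in treated and 317, 5702 and 2149 in WT mice, and none of 21 was called by either tool, with 0 at an unadjusted P under 0.05 in edgeR and 1 in DESeq2. Their median of -1.34 was -2.72 without treated mouse 3, where 15 genes were lower by P under 0.05 and 2-fold, and -1.91 without WT mouse 1, where 9 were. It was -0.24 without WT mouse 2 and -0.83 with the Y-linked covariate. The part of these differences in the projection neuron results was not tested.

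Interferon-stimulated antiviral genes lay above WT in all 3 treated mice, by an amount that differed between the mice, and few of them passed the test. Of 45 genes, every treated library lay above every WT library for 44, where 13.4% of all genes did so. With an unadjusted P under 0.05 and at least a 2-fold change, 39 were higher and none lower, where 3.84% of all genes were higher. The median log2 change was 2.33 (2.79 in untreated mice). Their summed level was 535, 652 and 1603 CPM in treated mice 1, 2 and 3 and 266, 302 and 278 in WT. Treated mouse 3 was thus the highest, and without it the median was 1.45. In the shared fit 3 genes were called, Usp18, Mx1 and Rtp4, while the fit to the 6 treated and WT libraries called 33 and DESeq2 called 32. No gene of the list was called in any of the 6 fits that left out 1 treated or WT library. With the Y-linked covariate the median was 0.70 and none was called, with 1 at an unadjusted P under 0.05. Leaving out untreated mouse 1, 2 or 3 gave 8, 1 and 37 calls. Untreated mice were also above WT, at 565, 748 and 2274 CPM summed.

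Usp18, the protease that removes the ubiquitin-like protein ISG15, read 4.63, 5.5 and 18.4 CPM in treated and 0.944, 0.954 and 0.864 in WT mice (3.36 ± 0.69, adjusted p = 0.033, and at most 0.121 with a library left out). Mx1, an antiviral GTPase, read 1.62, 2.04 and 7.69 against 0.113, 0.0734 and 0.199 CPM (4.81 ± 1.08, adjusted p = 0.0437, at most 0.157). In both, treated mouse 3 was well above mice 1 and 2, and all 3 were above WT. Rtp4, a chaperone-like interferon-induced gene, followed at 5.73, 8.24 and 20.3 against 1.47, 1.36 and 1.16 CPM (3.10 ± 0.71, adjusted p = 0.0466, at most 0.153). The dsRNA sensor Ifih1 (MDA5) and the DNA-sensing Ifi204 were the 2 called genes among 20 nucleic acid sensors. Ifih1 read 9.22, 10.5 and 21 against 3.78, 3.63 and 3.26 CPM (1.93 ± 0.41, adjusted p = 0.0369), and Ifi204 3.0, 4.65 and 9.46 against 0.302, 0.367 and 0.133 (4.41 ± 0.97, adjusted p = 0.0405). Both lost the call without any one of the 6 libraries. The signalling genes Irf3 and Tbk1, which act downstream of the sensors, were at -0.07 and -0.11 on the log2 scale with overlapping groups.

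Promoter windows are shown because interferon-regulated promoters often hold a response element read by interferon regulatory factors (GAAA, 2 bases of any kind and GAAA, searched on both strands). RefSeq promoter windows of 300 bases (GRCm38.p6, 250 before to 50 after the start) were present for 32 of the 45 antiviral genes, and 13 of them held the letters (40.6%). For the interferon-gamma-induced GTPases the count was 10 of 13 (76.9%) and for MHC class I genes 5 of 19 (26.3%), against 3.7% of genes of the dopamine, adenosine and cAMP list and 3.99% of all 27025 genes with a window. The 3 windows shown were picked because they hold the letters. Cxcl10 and Ifih1 were called here and Igtp was not, and the windows of the called genes H2-D1, H2-Q4, H2-Q7 and Clec7a hold no match. Capitals mark the letters in the windows of Cxcl10, an interferon-induced chemokine (chr5:92348840-92349139, minus strand, element starting 213 bases before the start site), Ifih1 (chr2:62646206-62646505, minus strand, element starting 32 bases after the start site) and Igtp (chr11:58199306-58199605, plus strand, element starting 34 bases before the start site).
Cxcl10: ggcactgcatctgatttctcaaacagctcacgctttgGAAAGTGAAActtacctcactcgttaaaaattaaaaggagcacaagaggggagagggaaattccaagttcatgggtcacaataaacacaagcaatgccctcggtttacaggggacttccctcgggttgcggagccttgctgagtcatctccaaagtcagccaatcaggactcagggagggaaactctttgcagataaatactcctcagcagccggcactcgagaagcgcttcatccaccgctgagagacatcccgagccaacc
Ifih1: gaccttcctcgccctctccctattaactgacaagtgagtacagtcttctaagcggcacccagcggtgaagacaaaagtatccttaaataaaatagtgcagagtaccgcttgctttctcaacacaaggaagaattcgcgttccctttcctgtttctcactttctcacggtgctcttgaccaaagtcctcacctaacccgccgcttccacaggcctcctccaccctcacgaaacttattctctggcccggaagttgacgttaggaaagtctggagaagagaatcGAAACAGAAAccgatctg
Igtp: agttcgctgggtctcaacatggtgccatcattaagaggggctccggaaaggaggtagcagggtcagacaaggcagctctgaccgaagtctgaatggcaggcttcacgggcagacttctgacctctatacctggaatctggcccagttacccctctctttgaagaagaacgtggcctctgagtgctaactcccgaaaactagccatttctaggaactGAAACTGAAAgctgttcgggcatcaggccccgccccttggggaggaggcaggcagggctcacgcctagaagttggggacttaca
A match is a description of the letters and was not tested as a binding site. Usp18, Mx1, Rtp4 and Gbp6 have no window in the table used.

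Genes for antigen presentation followed the same order among the mice. Of 22 genes for MHC class I and peptide loading, 4 were called higher, against 0.904% of all genes. For 20 of the 22 every treated library lay above every WT library, compared with 13.4% of all genes. The median log2 change was 1.97. The fit to 6 libraries called 14, DESeq2 called 13, and no gene was called in any fit with 1 treated or WT library left out. The median was 1.30 without treated mouse 3 and 0.61 with the Y-linked covariate. H2-D1, a classical class I gene, read 168, 259 and 449 CPM in treated and 36.2, 44.2 and 34.9 in WT mice (2.93 ± 0.64, adjusted p = 0.0404). Nlrc5, the transactivator of class I genes, read 10.1, 16.3 and 50.4 against 0.944, 1.61 and 1.06 CPM (4.40 ± 0.98, adjusted p = 0.0429). H2-Q4 and H2-Q7 were the others called, and reads of these closely related class I genes may be split between copies. The list summed to 1251, 1631 and 2800.2 CPM in treated and 872, 1038 and 884 in WT mice, again highest in treated mouse 3. The chaperones Calr and Pdia3, which also serve other proteins, overlapped between groups, with log2 changes of -0.21 and -0.14. Of 14 MHC class II genes none was called by edgeR, and 8 had an unadjusted P under 0.05, where 21.4% of all genes did. DESeq2 called 7 and the fit to 6 libraries 8. The invariant chain gene Cd74 was at 32.9, 90.5 and 264 CPM in treated and 1.28, 2.57 and 2.26 in WT mice (5.98 ± 1.54, adjusted p = 0.0657).

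Among 19 interferon-gamma-induced GTPase genes, Gbp6 was called at 12, 22.8 and 80.4 against 1.02, 1.43 and 1.46 CPM (4.87 ± 1.02, adjusted p = 0.0353). Of the 19, 17 had an unadjusted P under 0.05 with a 2-fold rise, against 3.84% of all genes. The median log2 change was 3.02 in the shared fit and 1.67 without treated mouse 3, and with the Y-linked covariate 0.79. The fit to 6 libraries called 13 and DESeq2 called 12. Igtp read 15.9, 32.4 and 136 CPM in treated and 2.91, 3.67 and 2.69 in WT mice (adjusted p = 0.0551). Cxcl10 was called at 3.95, 3.89 and 26.4 against 0.0756, 0.147 and 0 CPM (7.23 ± 1.56, adjusted p = 0.0383) and was lost without any one of the 6 libraries. Cx3cl1, the neuronal ligand of the microglial receptor CX3CR1, was the chemokine called lower, at 552, 552 and 604 against 795, 878 and 784 CPM (-0.52 ± 0.09, adjusted p = 0.0156). Its call was lost without treated mouse 1, 2 or 3, with a largest adjusted p of 0.0994.

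**Figure D3:**
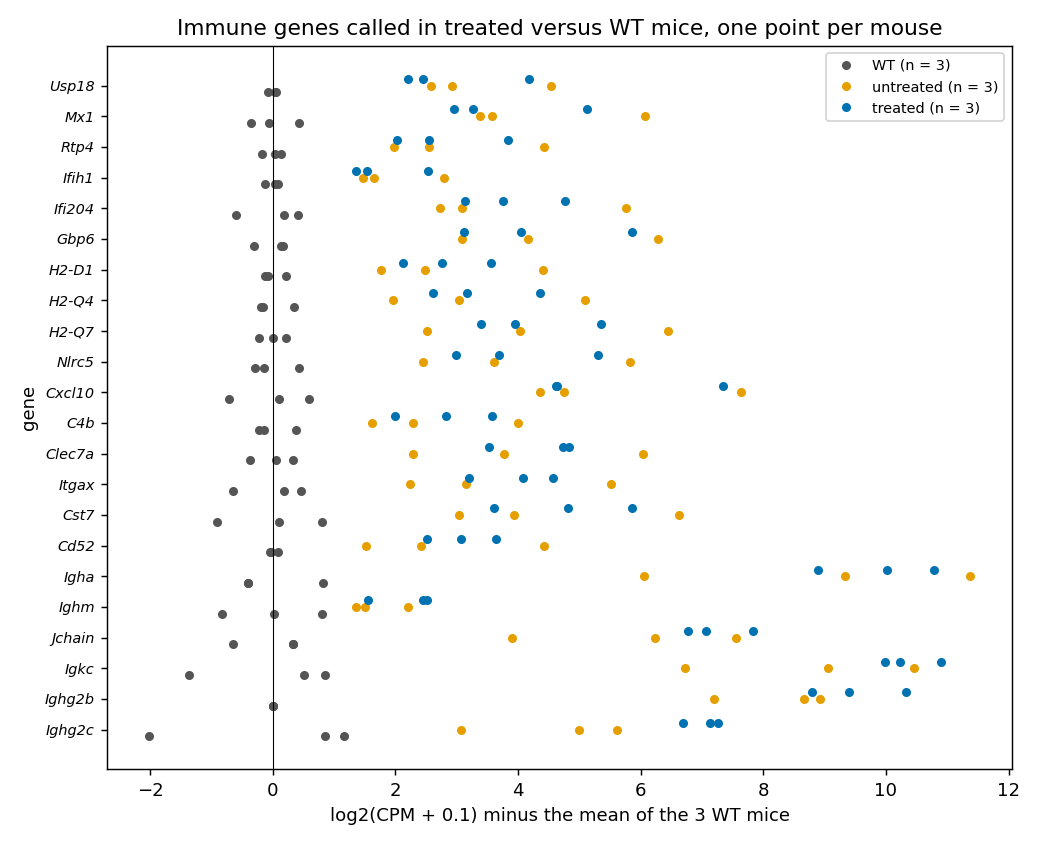
Each row is an immune gene called in treated against WT striatum and each point a mouse, placed by log2(CPM + 0.1) minus the mean of the 3 WT mice, with WT in grey, untreated in orange and treated in blue (n = 3 each, no error bars). Treated mice lay above WT for each gene shown, the spread between treated mice exceeded that between WT mice for Usp18, Mx1, Rtp4, Ifih1 and Gbp6, and Igha, Jchain, Igkc, Ighg2b and Ighg2c lay farthest from WT.

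Immunoglobulin constant region genes were among the largest rises in treated striatum. Of 22 tested B cell and plasma cell genes, 14 were called higher, against 0.904% of all genes, and none lower, with a median log2 change of 5.16. That median was 3.66 with genes at 3 counts or fewer in every WT library set to their lower bound. Between 4 and 11 were called with 1 treated or WT library left out, and with the Y-linked covariate the median was 2.56. Their summed level was 789.6, 1446 and 980.5 CPM in treated and 168, 172 and 121 in WT mice. Ighg2b, an IgG heavy chain gene, read 44.1, 128 and 67.3 CPM in treated mice and 0, 0 and 0 in WT, which is at least 741-fold higher against a floor of 3 counts per library (adjusted p = 0.00325). Igkc, the kappa light chain constant region, read 259, 492 and 308 against 0, 0.367 and 0.266 CPM (10.66 ± 1.22, adjusted p = 0.00331), and its call remained with the Y-linked covariate at 0.0362. Jchain, which joins secreted IgA and IgM, read 54.6, 115 and 67.2 against 0.529, 0.22 and 0.532 CPM (7.51 ± 1.00, adjusted p = 0.00525). All 3 held in every fit with 1 library left out, and treated mouse 2 was the highest for each. Ighg2b and Jchain were not called with the Y-linked covariate, at adjusted p-values of 0.0506 and 0.0879.

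Igha, the IgA heavy chain gene, read 62.6, 233 and 136 CPM in treated and 0, 0 and 0.133 in WT mice (11.44 ± 1.93, adjusted p = 0.0148), and lost its call without treated mouse 2, WT mouse 2 or WT mouse 3, with a largest adjusted p of 0.0807. Ighm, the IgM heavy chain gene, was also present in WT, at 65.7, 128 and 122 against 39, 22.6 and 12.5 CPM (2.09 ± 0.41, adjusted p = 0.0279). Iglc1, Iglc2 and Iglc3, the lambda light chain constant regions, had no count in WT and were at least 28.4, 24.2 and 12.4-fold higher against the same floor. Ighm (without treated mouse 2 or 3 or WT mouse 2), Iglc1 (without treated mouse 1, 2 or 3 or WT mouse 2 or 3), Iglc2 (without treated mouse 2) and Iglc3 (without treated mouse 1, 2 or 3 or WT mouse 2) lost the call, with largest adjusted p-values of 0.114, 0.116, 0.0588 and 0.103. Near-identical constant regions can share reads, so the split between single members is uncertain. Of 83 tested variable, diversity and joining segments of antibody and T cell receptor genes, 16 were called, against 3.69% of all genes. An unadjusted P under 0.05 with a 2-fold rise was found for 74, against 3.84% of all genes. No count was found in any WT library for 72 of the 83. Those 72 passed the filter on low counts through treated or untreated libraries alone. Only a rise over WT could be seen for them, so these counts are not separate support for a rise. Cd79a and Mzb1, which B and plasma cells use, were at 1.44, 1.78 and 1.23 and 1.56, 3.1 and 1.91 CPM in treated against 0.378, 0.257 and 0.233 and 0.0378, 0.22 and 0.233 in WT mice (adjusted p = 0.0406 and 0.0198), while the B cell marker Ms4a1 was under the filter on low counts. Xbp1, which plasma cells and other secretory cells use, was at 77.2, 79.3 and 102 against 111, 135 and 100.2 CPM and was not called.

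Of 31 tested T cell genes, none was called higher by edgeR. At an unadjusted P under 0.05, 17 were higher, where 21.4% of all genes passed in either direction. DESeq2 called 10 higher, and 864 of all 19463 genes. Of the list, 5 more genes were under the filter on low counts. The median was 2.35, or 2.21 with genes at 3 counts or fewer in every WT library set to their bound. Such a bound applied to 9 of the 31, which passed the filter through other libraries. The fit to 6 libraries tested 24 of the genes and called 12 higher, and 524 over all genes. Cd3e, a subunit of the T cell receptor complex, was at 0.582, 1.55 and 2.68 CPM in treated and 0, 0 and 0.0665 in WT mice (adjusted p = 0.101), and Cd8a at 0.797, 1.32 and 4.55 and 0, 0 and 0.133 (adjusted p = 0.0886). Cd3e and Cd8a were thus at or near 0 in WT. Cd4, which helper T cells and other cells express, was well above 0 in WT and was called lower, at 32.5, 31.6 and 31.5 CPM in treated, 18.2, 21.8 and 14.5 in untreated and 62.6, 79.8 and 73.5 in WT mice (-1.18 ± 0.14, adjusted p = 0.00389). The call of Cd4 held in every fit with 1 library left out and was lost with the Y-linked covariate, at an adjusted p of 0.152.

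Many microglial and complement genes lay above WT, and few of them were called in the shared fit. Of 22 disease-associated microglia genes, 4 were called higher, against 0.904% of all genes, and the list's median was 0.52. For 13 of the 22 every treated library lay above every WT library, where 13.4% of all genes did so, and for none below. The fit to 6 libraries called 10 of them. Clec7a, a pattern recognition receptor, read 3.59, 8.4 and 9.01 CPM in treated and 0.302, 0.147 and 0.233 in WT mice (4.92 ± 1.01, adjusted p = 0.0326). Itgax, an integrin subunit, read 3.46, 6.42 and 9.04 against 0.34, 0.147 and 0.432 CPM (4.33 ± 0.93, adjusted p = 0.0375). Cd52 and Cst7 were the others. Clec7a, Itgax and Cd52 lost the call without any one of the 6 libraries, and the list had no call in any such fit. Spp1 and Fth1 of the same list overlapped between groups, with adjusted p-values of 0.9 and 0.964. Of 18 homeostatic microglia genes, Siglech was called at 17.3, 20.7 and 16.1 against 11.4, 12.6 and 11.4 CPM (0.61 ± 0.14, adjusted p = 0.0476), with a largest adjusted p of 0.17 when a library was left out. For 14 of the 18 every treated library lay above every WT library, and for 1 below. The median of this list was 0.60, and the fit to 6 libraries called 8. Aif1, which encodes the microglial marker Iba1, was at 7.42, 8.66 and 11.6 CPM in treated and 4.57, 2.39 and 2.96 in WT mice (adjusted p = 0.132). Of 17 complement genes, C4b was called at 211, 375 and 629.7 against 45.1, 68.8 and 47.8 CPM (2.91 ± 0.61, adjusted p = 0.0353, at most 0.111 with a library left out), and C3 was at 11.2, 23.7 and 37.6 against 1.47, 1.98 and 1.23 CPM (adjusted p = 0.0797). The near-identical copy C4a was at -0.19 on the log2 scale and was not called, and reads may be split between the copies. For 13 of the 17 complement genes every treated library lay above every WT library, and for none below. Their median was 1.26, and the fit to 6 libraries called 10. With the Y-linked covariate the medians of the disease-associated, homeostatic and complement lists were -0.031, 0.13 and 0.001.

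Among other glia and vessels, 2 of 24 astrocyte, 2 of 23 oligodendrocyte and 2 of 20 endothelial genes were called higher, against 0.904% of all genes. Of the endothelial genes 1 was called lower, against 2.78%. At an unadjusted P under 0.05, 10 astrocyte genes were higher and 5 lower, 8 and 0 oligodendrocyte genes, and 9 and 2 endothelial genes. Of all genes 21.4% passed in either direction. The list medians were 0.29, 0.14 and 0.23. Of 24 astrocyte genes, S100b was called at 135, 153 and 122 against 95.5, 90.4 and 106 CPM (0.49 ± 0.10, adjusted p = 0.0349), and Cxcl10, already described, was the other. Gfap, the intermediate filament of reactive astrocytes, was at 238, 477 and 369 CPM in treated and 143, 180.1 and 86.2 in WT mice (1.40 ± 0.40, adjusted p = 0.0838), with no overlap, and did not pass. Serpina3n, a serpin induced in reactive astrocytes, was at 26.5, 57.8 and 60.2 against 8.95, 10.3 and 4.62 CPM (adjusted p = 0.059). The astrocyte genes Gja1 and Slc1a3 overlapped, with adjusted p-values of 0.948 and 0.991. Of 23 oligodendrocyte genes, Opalin, a myelin membrane protein gene, was called at 42.7, 57.8 and 42.9 against 24.6, 15.4 and 26.3 CPM (1.11 ± 0.21, adjusted p = 0.0224). Olig1, a lineage transcription factor, was called at 0.47 ± 0.11 (adjusted p = 0.0467). Mbp and Cspg4 overlapped, with adjusted p-values of 0.962 and 0.922. Of 20 endothelial genes, the tight junction gene Cldn5 was called at 36, 40.3 and 34.3 against 18.1, 17 and 22.4 CPM (0.94 ± 0.13, adjusted p = 0.00563). The call of Cldn5 held in every fit with 1 library left out and was lost with the Y-linked covariate, at an adjusted p of 0.231. The endothelial receptor gene Tek was called higher and the lipid transporter gene Mfsd2a lower, at 0.51 and -0.93. S100b, Opalin, Olig1, Tek and Mfsd2a each lost the call without treated mouse 1, 2 or 3, with largest adjusted p-values of 0.141, 0.101, 0.173, 0.158 and 0.153. S100b and Tek also lost it without WT mouse 1 or 2, Olig1 without WT mouse 1 or 3, and Mfsd2a without WT mouse 2. In the fit to the 6 treated and WT libraries alone, Olig1, Tek and Mfsd2a were not called, with adjusted p-values of 0.0698, 0.0512 and 0.0582.

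**Figure D4:**
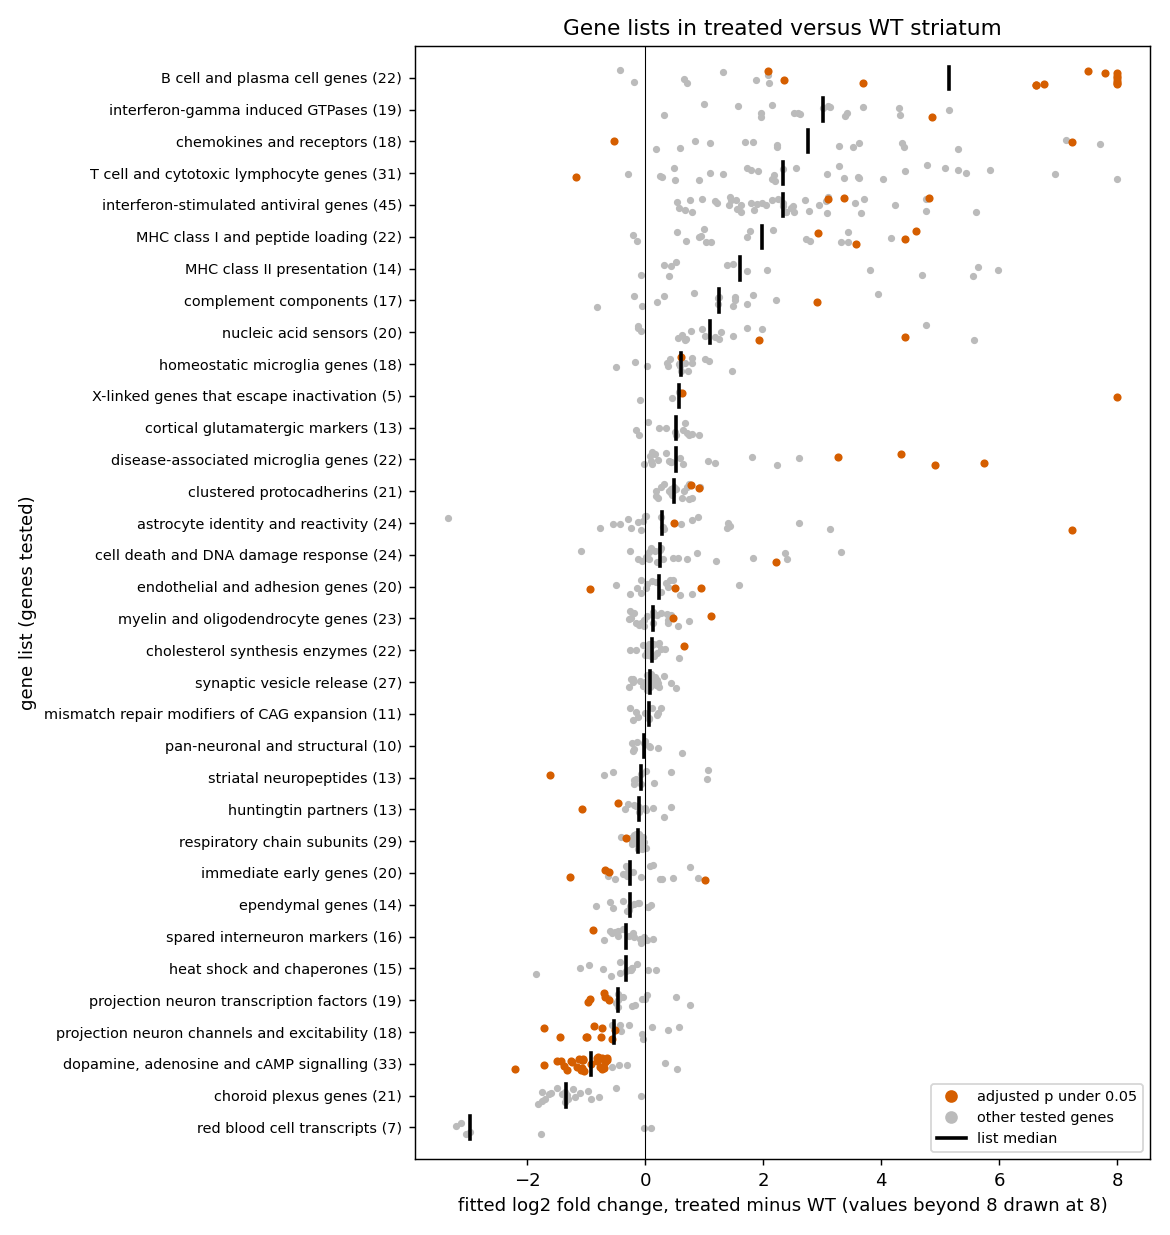
Each row is a gene list with the number of tested genes, each point a gene at its fitted log2 fold change of treated over WT (drawn at 8 where larger), orange where the adjusted p was under 0.05, and each bar the list median. Calls were mostly lower for the projection neuron lists, with 28 of 33 in dopamine, adenosine and cAMP signalling, and higher for the B cell and plasma cell list, with 14 of 22. Lists at the bottom without calls, choroid plexus genes and red blood cell transcripts, have medians of -1.34 and -2.98, which ran from -2.72 to -0.24 and from -5.47 to -2.46 when 1 treated or WT library was left out.

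The largest falls by fold were in genes of low or moderate level. Gpx6, a glutathione peroxidase gene, read 0.46, 0.362 and 0.485 CPM in treated and 4.19, 5.98 and 6.98 in WT mice, 13-fold lower (-3.70 ± 0.48, adjusted p = 0.00452). Slc4a11, a membrane transporter gene, read 1.69, 1.52 and 2.26 against 6.42, 17.8 and 13.2 CPM (-2.77 ± 0.36, adjusted p = 0.00456), and Plekhg4, a guanine nucleotide exchange factor gene, 4.6, 4.78 and 4.88 against 16.3, 40.2 and 21.2 (-2.44 ± 0.32, adjusted p = 0.00487). Impg1 and Odf4 fell by 2.25 and 2.39 on the log2 scale. Ifi27l2b had no count in treated mice and 0.529, 1.32 and 0.565 CPM in WT, which is at least 8.4-fold lower against the floor of 3 counts per library (adjusted p = 0.0201), but its call was lost without treated mouse 1, 2 or 3 or WT mouse 2, with a largest adjusted p of 0.081. Gpx6, Slc4a11, Plekhg4, Impg1 and Odf4 held in every such fit. With the Y-linked covariate none of these 5 was called, at adjusted p-values of 0.0627, 0.152, 0.14, 0.203 and 0.125. Among the rises, Wt1, a transcription factor of kidney and gonad development, read 2.27, 2.37 and 2.94 CPM in treated and 0, 0 and 0 in WT mice, at least 23.5-fold higher (adjusted p = 0.00487). In untreated mice Wt1 was at 1.47, 1.71 and 0.408 CPM. Gm11532 was likewise absent from WT, at 0.919, 1.28 and 1.1 CPM in treated mice (adjusted p = 0.00279). Wt1 and Gm11532 were not called with the Y-linked covariate, at adjusted p-values of 0.0879 and 0.0566. Rsrp1, a splicing-related gene, had a large difference in level at 470.1, 502 and 446 against 329, 295 and 329 CPM (0.57 ± 0.09, adjusted p = 0.0109), and lost its call without treated mouse 1 or 2, at an adjusted p of at most 0.0632.

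The 3 genes described next had mean levels farther from WT in treated than in untreated mice. Genes of this kind were picked by their P between treated and untreated mice, so that P is not separate support. No gene was called between those groups in edgeR (lowest adjusted p 0.348), and no movement away from WT is read. Mafa, a transcription factor gene known from pancreatic beta cells, read 1.32, 1.35 and 1.23 CPM in treated, 2.25, 2.08 and 2.0 in untreated and 4.08, 4.11 and 4.59 in WT mice. It was 3.27-fold below WT (adjusted p = 0.00279), and treated over untreated was -0.70 ± 0.17 with an unadjusted P of 0.00267 and an adjusted p of 0.783. Onecut2, a neuronal transcription factor gene, read 52.2, 47.7 and 45.6, 30.4, 35 and 25.7 and 23.8, 19.9 and 32.8 CPM, above WT by 0.93 ± 0.18 (adjusted p = 0.0252), with an unadjusted P of 0.00384 and an adjusted p of 0.821 against untreated. Its call against WT was lost without treated mouse 1, 2 or 3 or WT mouse 1 or 2, with a largest adjusted p of 0.105. Ighg2c, an IgG heavy chain gene, read 189, 207 and 140.3, 11.3, 43.2 and 66.4 and 2.95, 2.35 and 0.233 CPM, and treated exceeded untreated by 2.15 ± 0.60 on the log2 scale (unadjusted P = 0.00515, adjusted p = 0.821). The groups did not overlap for any of the 3 genes, other than the untreated and WT mice for Onecut2.

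Clustered protocadherins, cell adhesion genes of neurons, had 2 of 21 members called higher, Pcdhb19 at 11.5, 11.8 and 10.8 against 6.69, 5.29 and 6.22 CPM (0.91 ± 0.14, adjusted p = 0.0107) and Pcdhb9 at 0.78 ± 0.14 (adjusted p = 0.0162). For 13 of the 21 every treated library lay above every WT library, where 13.4% of all genes did so. The median was 0.49 against 0.004 for all genes, of which 0.904% were called higher. Both lost the call without treated mouse 1 or 2, and Pcdhb9 also without treated mouse 3 or WT mouse 2, with largest adjusted p-values of 0.0639 and 0.0849. These genes are close copies of each other, so single members are uncertain. Among 20 immediate early genes, which neurons switch on with activity, Egr2 and Egr3 were called lower at -1.27 ± 0.25 and -0.61 ± 0.12, Nr4a1 at -0.68 ± 0.14, and Btg2 higher at 21.6, 24.1 and 21.1 against 12.4, 11 and 9.44 CPM (1.02 ± 0.17, adjusted p = 0.0147). Fosb and Fosl2 overlapped between groups. Of 24 genes for cell death and DNA damage, Atf3, a stress-induced transcription factor gene, was called at 2.91, 4.09 and 4.62 against 0.491, 0.991 and 0.997 CPM (2.22 ± 0.40, adjusted p = 0.0201), and Trp53 overlapped between groups (adjusted p = 0.941). Egr2, Egr3, Btg2 and Atf3 each lost the call without 1 or more single libraries, with largest adjusted p-values of 0.109, 0.132, 0.0783 and 0.0876.

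Housekeeping and repair groups had few calls. Of 29 respiratory chain subunits, Ndufs3 of complex I was called lower at 73.3, 77.3 and 70.9 against 90.9, 94.9 and 92.9 CPM (-0.33 ± 0.06, adjusted p = 0.026). Thus 1 of 29 was called lower, against 2.78% of all genes. For 15 of the 29 every treated library lay below every WT library, where 15.1% of all genes did so, and the median was -0.13. With library totals in place of TMM factors that median was -0.07. The call of Ndufs3 was lost without treated mouse 1, 2 or 3 or WT mouse 2 or 3, with a largest adjusted p of 0.138. Of 11 mismatch repair genes linked to CAG repeat expansion none was called by edgeR or DESeq2 or had an unadjusted P under 0.05, and Msh3 was at 22.9, 21.3 and 19.3 against 18.4, 22.4 and 23 CPM (adjusted p = 0.977). Of 15 heat shock genes none was called by edgeR, and DESeq2 called 5 lower, where it called 1082 of all 19463 genes lower. At an unadjusted P under 0.05, 11 were lower and none higher, where 21.4% of all genes passed in either direction. For 11 of the 15 every treated library lay below every WT library, against 15.1% of all genes. The median of the heat shock list was -0.33. Hspa1b, an inducible HSP70 gene, was at 9.65, 11 and 16 against 25.9, 78.5 and 26.7 CPM (-1.84 ± 0.43, adjusted p = 0.0501). The hemoglobin gene Hbb-bs, a sign of blood in the tissue, was at 14.9, 0.692 and 1.55 CPM in treated and 60.3, 31 and 58.5 in WT mice (adjusted p = 0.151), lower in every treated mouse than in any WT mouse.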

How the data were processed

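Striatal RNA of 9 mice was profiled with a kit that primes from the poly(A) tail and reads transcript 3′ ends. The deposited values are raw counts per gene made by the authors, with no normalization. The study's methods name STAR, while the submitters' processing notes list Trimmomatic 0.39, FastQC 0.11.9, HISAT2 2.2.1, featureCounts 2.0.1 and Subread, and which of these made the mouse table, its build, its strand setting and whether unique molecular tags were collapsed are not given in the sources used here. Of 55357 gene IDs, 94.1% had a symbol, which held 99.8% of the counts. Library totals were 27184356 to 32102121.

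Tests were run with edgeR 4.0.16 and limma 3.58.1 under R 4.3.3, with filterByExpr at a minimum count of 10, TMM factors, and 1 quasi-likelihood fit over the 9 libraries with 6 residual degrees of freedom. The p-values were adjusted over all tested genes by the Benjamini-Hochberg method and called under 0.05. The same script was tested on simulated counts. Alternatives were DESeq2 1.42.0, library totals, no filter, the 6 treated and WT libraries alone, a replicate block, the share of Y-linked counts as a covariate, autosomal genes alone, leaving out each library, and P under 0.01 for the 2-fold criterion. Leaving out untreated libraries was chosen after seeing the data. Figures were drawn in Python 3.11.15 with matplotlib 3.10.9.

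Genes were named by a rule: Htt and the sex chromosome genes; the 12 largest rises and falls of called genes that changed at least 2-fold, averaged 10 counts or more in the higher group and did not overlap; the 10 largest differences in mean CPM in each direction; in each list the 3 smallest P and the 2 smallest changes above 5 CPM; Rbfox3, Gfap and Aif1, whose proteins the study stained; and 6 genes nearer to and 6 farther from WT. Further genes of the lists, namely Cd3e, Cd79a, Cd8a, Cst7, Drd1, Drd2, H2-Q7, Mzb1 and Nr4a1, were named after their values were seen. The genes, lists and tests were chosen with earlier results of these data known. Same-numbered treated and WT mice did not deviate together, with correlations of 0.0849, -0.0617 and 0.0384, so the numbers were not used as pairs. In the main fit, the p-values weigh a difference between groups against the spread between mice within groups, estimated over all 9 libraries. Pig samples were not analysed here, and the results of some genes are not reported here.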

Additional observations from a re-analysis of the deposited data

How the results depend on the processing

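All 718 genes called in treated against WT kept their direction in every alternative in which they were tested, but the number called changed. It was 1946 with DESeq2 (864 higher, 1082 lower), 365 without a filter on low counts (61 and 304), 548 with library totals (212 and 336), 1044 with the 6 treated and WT libraries alone (524 higher) and 5 with the Y-linked share as a covariate (2 and 3). The replicate block gave 778 calls, 301 of them higher, of which 573 were among the 718. Leaving out 1 treated or WT library gave 136 to 1092 calls, 16 to 399 higher and 120 to 693 lower. Without untreated mouse 2 there were 453 calls (89 higher), and without untreated mouse 3 there were 1380 (684 higher, 696 lower). Of the genes with a 2-fold change, 541 passed P under 0.01, 361 of them higher. Those lower numbered 435 without a filter and 202 to 414 with a treated or WT library left out, and the Y-linked covariate gave 274 higher and 430 lower. Htt with that covariate was at -0.48 with an adjusted p of 0.177. The cause of these changes was not tested. That covariate also moved list medians, to 0.70 for antiviral genes, 0.23 for sensors, 0.79 for GTPases, 0.61 for MHC class I, 0.27 for MHC class II, 0.59 for T cell genes, 2.56 for B cell genes, -0.086 for chemokines, 0.13 for homeostatic microglia, -0.031 for disease-associated microglia, 0.001 for complement, -0.071 for astrocytes, 0.31 for cholesterol synthesis, -0.12 for endothelium, -0.62 for ependyma, -6.30 for red blood cells, 3.17 for the Hox gene, 0.72 for protocadherins, -0.028 for mismatch repair, -5.40 for Y-linked genes, 0.14 for X escape genes, 0.30 for pan-neuronal genes and -0.031 for cell death. With library totals the median was -0.47 for channels, -0.07 for the respiratory chain, 0.12 for mismatch repair and -0.051 for huntingtin partners. DESeq2 gave 6.24 for the Hox gene and -26.63 for Y-linked genes, and the replicate block -15.69 for the latter, whose treated counts were all 0. With 1 treated or WT library left out, list medians ran from -0.59 to -0.17 for transcription factors, from -0.56 to -0.38 for channels, from 0.21 to 1.28 for cortical markers, from 1.45 to 2.58 for antiviral genes, from 1.67 to 3.44 for GTPases, from 1.30 to 2.27 for MHC class I, from 1.77 to 3.08 for chemokines, from 0.071 to 0.25 for cholesterol synthesis, from 0.17 to 0.31 for endothelium, from -5.47 to -2.46 for red blood cells, from 6.64 to 7.03 for the Hox gene, from 0.47 to 0.62 for protocadherins, from -0.19 to -0.024 for huntingtin partners, from -0.11 to -0.002 for pan-neuronal genes and from 0.23 to 0.38 for cell death. Hoxc4 alone passed the filter of the Hox list.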
